A study of Mus musculus with 13 samples.

Results

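The 46 type I interferon-stimulated genes described here were followed in bulk RNA sequencing of mouse CD4+ T cells. They were found by their symbols in the deposited count table, which holds 55774 entries (55709 without repeated rows). All 46 were among the 15739 genes with enough counts to be tested. The T cells were primary naive CD4+ cells from the spleens of female mice of strain NOD/ShiLtJ that carry the BDC2.5 T cell receptor transgenes, so that their receptor recognises a beta-cell antigen. In the first group (STZ-macrophage co-culture, 5 libraries) the cells spent 96 hours with islet macrophages, enriched on magnetic beads, of NOD mice that had received one low dose of the beta-cell toxin streptozotocin (STZ) at 4 weeks of age. In the second (control-macrophage co-culture, 4 libraries) the macrophage donors had received buffer, and in both cases the islets were taken 10 days after the injection, at 5.5 weeks. T cells were then sorted as live CD45+Thy1.2+CD4+ events. The third group (cells alone, 4 libraries) is labelled untreated. Whether these cells were cultured is not in the labels, so any difference from them may hold effects of culture as well as of macrophages. The labels call the replicates biological without saying whether each came from its own mouse, so the p-values measure the spread between these libraries. Day 1 of collection held 2 STZ-macrophage, 3 control-macrophage and all 4 cells-alone libraries, and day 2 held 3 STZ-macrophage libraries and 1 control-macrophage library.

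Type I interferons (interferon-alpha and interferon-beta) bind a receptor made of Ifnar1 and Ifnar2, whose kinases Jak1 and Tyk2 phosphorylate STAT proteins, Stat2 among them. These join Irf9 in a complex that binds the interferon-stimulated response element in the promoters of target genes. The targets hold viral RNA, sense nucleic acids, attach the ubiquitin-like protein Isg15, or restrict viruses at membranes and in the cytoplasm. Many of them also respond to interferon-gamma, which has its own receptor, and T cells can both make interferon-gamma and respond to either type.

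The response element was searched as GAAANNGAA on both strands, overlapping matches counted, in promoter windows from 250 bases before to 50 bases after the RefSeq start (GRCm38.p6). Of the 46 members, 33 had a window, and 19 of these (57.6%) held the motif in any of their windows. Of all 27025 genes with a window, 9.76% did. With a further A after the motif the shares were 45.5% and 3.99%, and with a further A and C they were 33.3% and 0.944%. In 14 members a match lay wholly before the start, and 12 members had at least 2 matches. The stretches below come from the members whose values are described most closely: Ifit1, Ifit3 and its near-copy Ifit3b, Isg15, the sensor Ifi203, and Oas3 and Trim25, which had positive fold changes in the STZ-macrophage co-culture. They are written 5′ to 3′ along the gene's strand, in lower case, with the motif on either strand in capitals. A run of capitals over 9 letters holds overlapping matches.
Ifit1: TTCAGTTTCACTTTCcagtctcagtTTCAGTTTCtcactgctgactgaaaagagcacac
Ifit3: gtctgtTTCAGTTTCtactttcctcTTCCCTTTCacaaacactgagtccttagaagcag
Ifit3b: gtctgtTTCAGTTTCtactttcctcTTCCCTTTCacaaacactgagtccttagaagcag
Isg15: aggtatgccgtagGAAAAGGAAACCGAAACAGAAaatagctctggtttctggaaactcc
Ifi203: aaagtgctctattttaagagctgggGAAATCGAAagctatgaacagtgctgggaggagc
Oas3: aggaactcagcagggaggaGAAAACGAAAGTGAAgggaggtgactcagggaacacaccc
Trim25: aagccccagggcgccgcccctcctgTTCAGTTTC
The Ifit1 stretch lies at chr19:34640780-34640838 (plus strand), that of Ifit3 at chr19:34583402-34583460 (plus) and that of Ifit3b at chr19:34607798-34607856 (plus). The Isg15 stretch lies at chr4:156200851-156200909 (minus strand), that of Ifi203 at chr1:173942494-173942552 (minus), that of Oas3 at chr5:120777695-120777753 (minus) and that of Trim25 at chr11:88999369-88999402 (plus). The stretches of Ifit3 and Ifit3b have the same letters. A match describes the letters and is not a measured binding site.

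**Figure D1:**
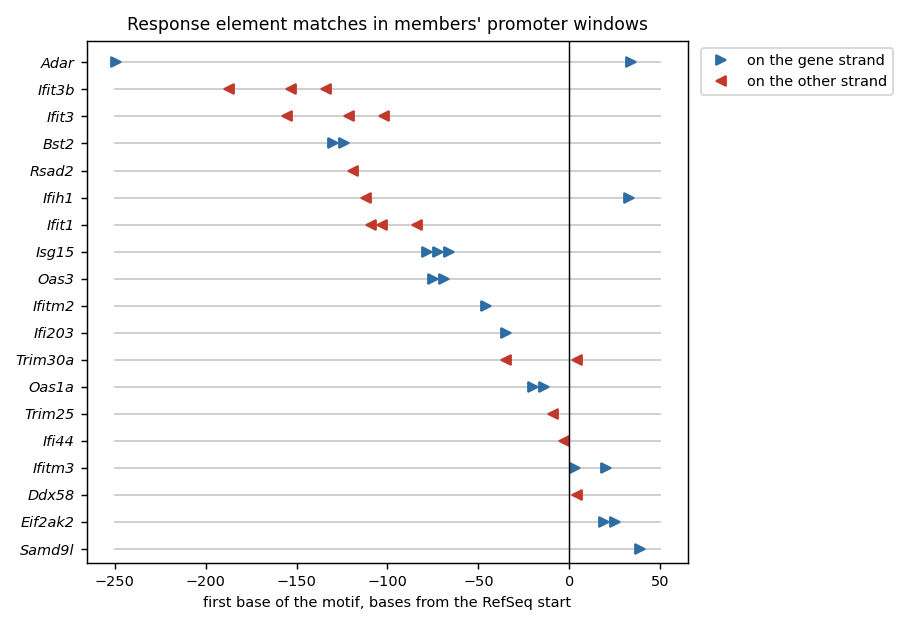
Position of each GAAANNGAA match (x axis, bases from the RefSeq start, negative before it) in the promoter windows of the 19 members that hold one; right-pointing marks are on the gene's strand and left-pointing marks on the other. In 14 members at least 1 match lies wholly before the start, and 12 members have 2 or more.

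Libraries held 33.3 to 58.7 M estimated counts in the STZ-macrophage co-culture, 30.5 to 61.1 M in the control-macrophage co-culture and 17.3 to 39.7 M in cells alone. A count of 3 in 1 library corresponds to 0.0494 to 0.134 counts per M (CPM, scaled by the library's TMM factor). All 8 CD4 T cell markers (Cd3d, Cd3e, Cd3g, Cd4, Thy1, Cd28, Lck and Trac) had counts in every group, with summed levels of 7043 to 9452 CPM in the STZ-macrophage co-culture, 9082 to 16018 CPM in the control-macrophage co-culture and 6091 to 12140 CPM in cells alone. Summed levels of 15 macrophage markers were 19.9 to 108 CPM in the STZ-macrophage co-culture, 4.85 to 50.6 CPM in the control-macrophage co-culture and 1.48 to 5.59 CPM in cells alone. Mertk was at 0 in all control-macrophage libraries and Itgax in all cells-alone libraries. Summed levels of 8 islet endocrine markers were 0.694 to 157 CPM in the STZ-macrophage co-culture, 0.0662 to 1.73 CPM in the control-macrophage co-culture and 0 to 0.585 CPM in cells alone. Ppy was at 0 in all 3 groups and Sst in the control-macrophage and cells-alone groups; Ins1, Gcg, Iapp, Chga and Pcsk2 were at 0 in cells alone. Gcg was high in STZ-macrophage replicates 2 (67.5 CPM) and 4 (85.3 CPM) and at most 0.207 CPM elsewhere. Plasmacytoid dendritic cells, known makers of type I interferon, had 5 markers summing to 13 to 24.8 CPM in the STZ-macrophage co-culture, 8.83 to 16.5 CPM in the control-macrophage co-culture and 0.154 to 36.1 CPM in cells alone, with Cox6a2 at 0 in all 3 groups and Spib at 0 in cells alone. Nearly all of that sum was Runx2 in the co-cultures (12.8 to 24.6 CPM with STZ macrophages, 8.36 to 16.4 CPM with control macrophages) and Ccr9 in cells alone (0 to 36 CPM), both of which T cells can express. Siglech, the more specific marker, was at most 0.0659 CPM and Spib at most 0.124 CPM in any library. In the STZ-macrophage, control-macrophage and cells-alone groups, 5 neutrophil markers summed to 0.592 to 6.62, 0.494 to 1.36 and 0.0586 to 0.738 CPM. S100a8 and S100a9 were highest in STZ-macrophage replicates 1 (4 and 2.23 CPM) and 5 (3.36 and 2.53 CPM), while Ly6g and Csf3r were not. In the same order, 6 B cell markers summed to 1.06 to 2.04, 1.02 to 2.15 and 6.14 to 21.2 CPM. The 6 CD8 T and NK cell markers summed to 57.5 to 80.6, 42.4 to 102 and 68.6 to 146 CPM. The part that these other cells' RNA has in the members' levels was not tested. Among cells alone, replicate 2 stood apart, with a median log2 difference of -0.59 from the group mean over the members. In bulk RNA, a smaller share of cells with a transcript and less of it per cell cannot be told apart.

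Every member had a count in each of the 9 co-cultures, and 41 to 44 of 46 had one in each cells-alone library. The members' levels summed to 18034 to 22226 CPM in the STZ-macrophage co-culture, 24967 to 41929 CPM in the control-macrophage co-culture and 2976 to 6893 CPM in cells alone. The 3 groups did not overlap in this sum. Per kilobase of exons, Ly6a (Sca-1, a GPI-anchored surface protein) had the highest mean level, with 5969 CPM per kb in the STZ-macrophage co-culture, 8702 CPM per kb in the control-macrophage co-culture and 770.4 CPM per kb in cells alone. Ifi27l2a, a small membrane protein, came next in the co-cultures with 2882 CPM per kb in the STZ-macrophage co-culture, 6029.8 CPM per kb in the control-macrophage co-culture and 137 CPM per kb in cells alone. The lowest levels in the control-macrophage co-culture belonged to Cmpk2 (2.5 CPM per kb), a mitochondrial nucleotide kinase, and Parp12 (2.7 CPM per kb), an ADP-ribosyltransferase.

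**Figure D2:**
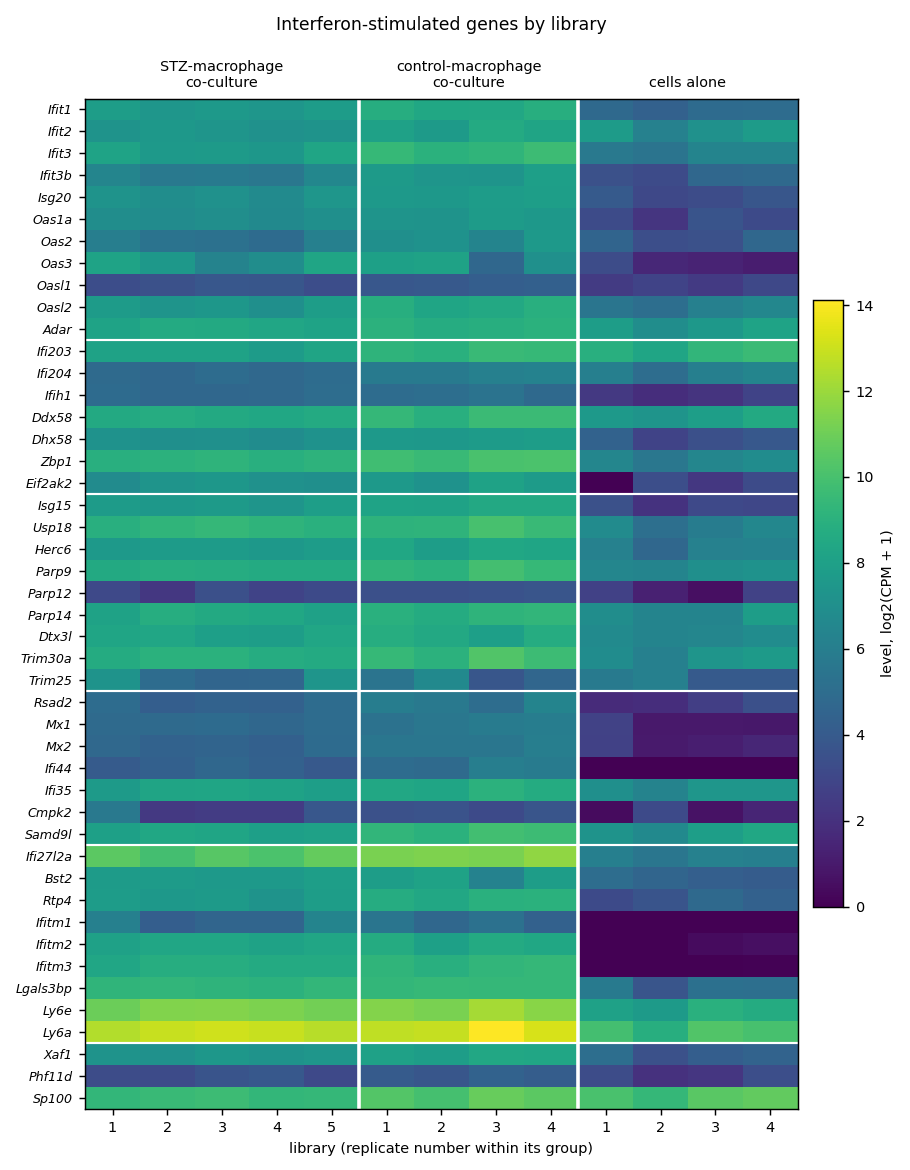
Level of each of the 46 members (rows, grouped by role, with white lines between roles) in each of the 13 libraries (columns), as log2(CPM + 1) in colour. The co-cultures have higher levels than cells alone for nearly all members; Ifi44 and Ifitm1 are at 0 CPM in all 4 cells-alone libraries, while Ifi203, Ifi204 and Sp100 are about as high in cells alone as in the control-macrophage co-culture.

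The 2 kinds of co-culture differ in whether the macrophage donors had received STZ. Between them, fold changes were negative (lower in the STZ-macrophage co-culture) for 41 of 46 members and positive for 5. Of all 15739 genes tested, 8723 were negative and 7015 positive. Of the 46, 2 fell (Ifit3 and Ifit1, both RNA-binding proteins of the IFIT family) and none rose, where 0.159% of the 15739 genes tested were called lower and 0.14% higher (edgeR's quasi-likelihood test, fitted with the collection day; calls at a Benjamini-Hochberg adjusted p under 0.05). At an unadjusted p under 0.05 there were 31 members with a negative and 1 with a positive fold change (Trim25). At that threshold 2340 of the 15739 genes tested had a negative and 1256 a positive fold change. The median log2 fold change of the members was -0.75, against -0.13 over all genes tested. In 30 of 46 members each STZ-macrophage library was below each control-macrophage library, a separation found in 5.08% of all genes tested, and in no member was each above, a separation found in 2.45% of all genes.

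The number of calls differed with the libraries, the tool, the scaling and the terms of the fit, and the cause was not tested. With the 9 co-cultures alone, edgeR called 30 members lower, where 8.04% of 14843 genes were called lower, and 1 higher (Trim25), where 10% were. On all 13 libraries DESeq2 called 10 members lower (1.47% of all genes) and limma-voom 16 (1.12%), neither any higher (2.81% of all genes with DESeq2, 2.19% with limma-voom). On the authors' adjusted log2 table, limma called 11 members lower (1.27% of its genes) and none higher (3.22%). Without cells-alone replicates 1 and 2, edgeR called 27 lower (6.42% of all genes) and 1 higher (8.79%). With RLE scaling, with the replicate number as a block, without STZ-macrophage replicates 2 and 4, or without any 1 of the co-culture libraries, edgeR called none. These fits called few genes at all. RLE scaling called 14 of 15739 genes lower and 30 higher. The replicate block and the fit without STZ-macrophage replicates 2 and 4 called 0 genes. Without 1 co-culture library, 0 to 9 genes were called lower and 0 to 76 higher. Below, "called" without a tool's name means edgeR with all 13 libraries.

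The 8 CD4 T cell markers also had negative fold changes (8 of 8, median -0.62, none called), and 10 of 11 tested macrophage markers had positive ones (median 1.55, none called). Their part in the members' difference was not tested.

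Among the 11 RNA-binding effectors, Ifit1 binds viral RNA that lacks cap methylation. It had 229, 172, 192, 172 and 224 CPM in STZ-macrophage replicates 1 to 5 and 434, 342, 347 and 464 CPM in control-macrophage replicates 1 to 4. Its log2 fold change was -0.90 ± 0.17 (SE; adjusted p = 0.047). Ifit3, which binds and stabilises Ifit1 in human cells, had 295, 193, 209, 176 and 313 CPM in the STZ-macrophage libraries and 699, 514, 598 and 805 CPM in the control-macrophage libraries. For both genes all 5 STZ-macrophage libraries lay below all 4 control-macrophage libraries. The log2 fold change of Ifit3 was -1.34 ± 0.22 (SE; adjusted p = 0.0337), with mean levels of 237 ± 62.4 CPM (SD, n = 5) in the STZ-macrophage co-culture and 654 ± 126 CPM (n = 4) in the control-macrophage co-culture. Its near-copy Ifit3b had 85.1, 51.6, 56.2, 47.4 and 91 CPM in the STZ-macrophage libraries and 206, 160.0, 154 and 251 CPM in the control-macrophage libraries, without overlap, and a log2 change of -1.36 ± 0.33 (SE; adjusted p = 0.115). The coding sequences of Ifit3 and Ifit3b have 1198 of 1209 bases in common (99.1%), so how reads were shared between them is uncertain.

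The other RNA-binding effectors were not called. Oas2 (-1.19), Oasl2 (-1.04), Ifit2 (-0.97), Oasl1 (-0.66), Oas1a (-0.60), the RNA-editing deaminase Adar (-0.60) and the exonuclease Isg20 (-0.54) had negative log2 fold changes. The OAS enzymes make 2′-5′ oligoadenylates, which activate RNase L. Oas3 was the exception in sign, with 294, 181, 79.3, 119 and 310.3 CPM in STZ-macrophage replicates 1 to 5 and 260.0, 275, 24.9 and 135 CPM in control-macrophage replicates 1 to 4. The groups overlapped, and the highest values were in STZ-macrophage replicates 1 and 5 and control-macrophage replicates 1 and 2, all of day 1. The log2 fold change of Oas3 was 1.09 ± 0.67 (SE; adjusted p = 0.325).

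None of the 7 nucleic acid sensors was called, and all had negative fold changes. Ifi203 and Ifi204, members of the PYHIN family of DNA-binding proteins, had log2 fold changes of -1.24 ± 0.25 (SE; adjusted p = 0.0604) and -1.18 ± 0.27 (SE; adjusted p = 0.0828). Ifi203 had 275, 274, 284, 217 and 302 CPM in the STZ-macrophage and 573, 492, 759.7 and 706 CPM in the control-macrophage libraries. Ifi204 had 28, 25.1, 30.5, 26.2 and 30.4 CPM in the STZ-macrophage libraries and 52.6, 54, 70.2 and 76.4 CPM in the control-macrophage libraries. For both, each STZ-macrophage library was below each control-macrophage library. Zbp1, a sensor of Z-form nucleic acids, had 479.6, 529, 567, 475 and 549 CPM in the STZ-macrophage libraries and 883, 767, 1075 and 1098 CPM in the control-macrophage libraries (log2 fold change -0.91), again without overlap. Among the RNA helicases, Ddx58 (RIG-I) had a log2 fold change of -0.87, Dhx58 (LGP2) of -0.61 and Ifih1 (MDA5) of -0.26. Dhx58 had 143, 132, 133, 114 and 147 CPM in the STZ-macrophage and 200.3, 184, 215 and 235 CPM in the control-macrophage libraries. The kinase Eif2ak2 (PKR), which halts translation on double-stranded RNA, had a log2 fold change of -0.67 (SE 0.75).

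Of the 9 genes for Isg15 and for ubiquitin and ADP-ribosyl enzymes, none was called and 8 had negative fold changes. Isg15 had 215, 184, 203, 164 and 236 CPM in the STZ-macrophage libraries and 289.6, 282, 368 and 367 CPM in the control-macrophage libraries, without overlap, with a log2 change of -0.68 ± 0.27 (SE; adjusted p = 0.182). The enzymes with negative values were the ubiquitin ligases Trim30a (-1.0) and Dtx3l (-0.18), the Isg15 ligase Herc6 (-0.60), the Isg15 protease Usp18 (-0.53), Parp9 (-0.85), Parp14 (-0.76) and Parp12 (-0.56). Trim25, a ubiquitin ligase that activates RIG-I, had 153, 31, 23.4, 24.3 and 162 CPM in STZ-macrophage replicates 1 to 5 and 41.4, 102, 12.7 and 24.7 CPM in control-macrophage replicates 1 to 4. Its groups overlapped, and 3 libraries stood high: STZ-macrophage replicates 1 and 5 and control-macrophage replicate 2. The log2 fold change of Trim25 was 1.32 ± 0.53 (SE; adjusted p = 0.187).

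Among the 7 antiviral GTPases, nucleotide enzymes and cytoplasmic restriction factors, 6 had negative fold changes and none was called. Ifi44, a GTP-binding-like protein, had 15.4, 19.1, 25.6, 20.0 and 14.6 CPM in the STZ-macrophage and 30.5, 28.9, 65.1 and 58.2 CPM in the control-macrophage libraries. Its log2 fold change of -1.47 ± 0.29 (SE; adjusted p = 0.0715) was the lowest of the 46. Samd9l, which blocks translation in infected cells, had 263, 337, 315, 251 and 264 CPM in the STZ-macrophage libraries and 619, 519.6, 922 and 801 CPM in the control-macrophage libraries and a log2 change of -1.42 ± 0.30 (SE; adjusted p = 0.0715). Neither gene's groups overlapped. Mx2 (-1.0) and Mx1 (-0.86), dynamin-like GTPases, Rsad2 (viperin, -0.93) and Ifi35 (-0.75) were also negative. Cmpk2 had 51.6, 4.03, 4.79, 4.6 and 13.4 CPM in the STZ-macrophage libraries and 10.5, 11, 8.11 and 11.9 CPM in the control-macrophage libraries, with 1 library, STZ-macrophage replicate 1, far above the rest. Its log2 fold change was 0.54 ± 0.79 (SE; adjusted p = 0.681), and -0.29 without that library.

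Of the 9 membrane and secreted proteins, 7 had negative fold changes and none was called. Ly6a had 5671, 7808, 8611, 7629.6 and 6245 CPM in STZ-macrophage replicates 1 to 5 and 7021, 7601, 17682 and 9641 CPM in control-macrophage replicates 1 to 4. The groups overlapped, control-macrophage replicate 3 (the day 2 library) was highest, and the log2 fold change was -0.72 ± 0.26 (SE; adjusted p = 0.165). Values were -1.15 for the receptor chaperone Rtp4, -0.94 for Ifi27l2a, -0.58 for Ly6e and -0.15 for the secreted Lgals3bp. The IFITM proteins hinder virus entry at membranes, and their log2 fold changes were -0.65 for Ifitm3, -0.24 for Ifitm2 and 0.45 for Ifitm1. Ifitm3 had 326, 434, 449, 400.2 and 394 CPM in the STZ-macrophage libraries and 605, 478, 628 and 673 CPM in the control-macrophage libraries, without overlap. Ifitm1 had 70.2, 17.6, 23.4, 23.4 and 80.8 CPM in the STZ-macrophage libraries and 44.5, 25.3, 37.2 and 19.5 CPM in the control-macrophage libraries, with the highest values in STZ-macrophage replicates 1 and 5. Bst2 (tetherin), which holds budding virus at the cell surface, had a log2 fold change of 0.40.

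The 3 nuclear and apoptosis-linked members were negative and not called. Sp100, a protein of PML nuclear bodies, had 642, 758, 801, 655 and 667 CPM in the STZ-macrophage and 1304, 980.4, 1826 and 1490.5 CPM in the control-macrophage libraries, without overlap, with a log2 change of -1.08 ± 0.25 (SE; adjusted p = 0.0852). Xaf1, an antagonist of the apoptosis inhibitor XIAP, had 151, 139, 179, 150.3 and 170.2 CPM in the STZ-macrophage libraries and 269, 230.3, 354 and 330.1 CPM in the control-macrophage libraries, without overlap (log2 fold change -0.94). The log2 fold change of Phf11d was -0.87.

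**Figure D3:**
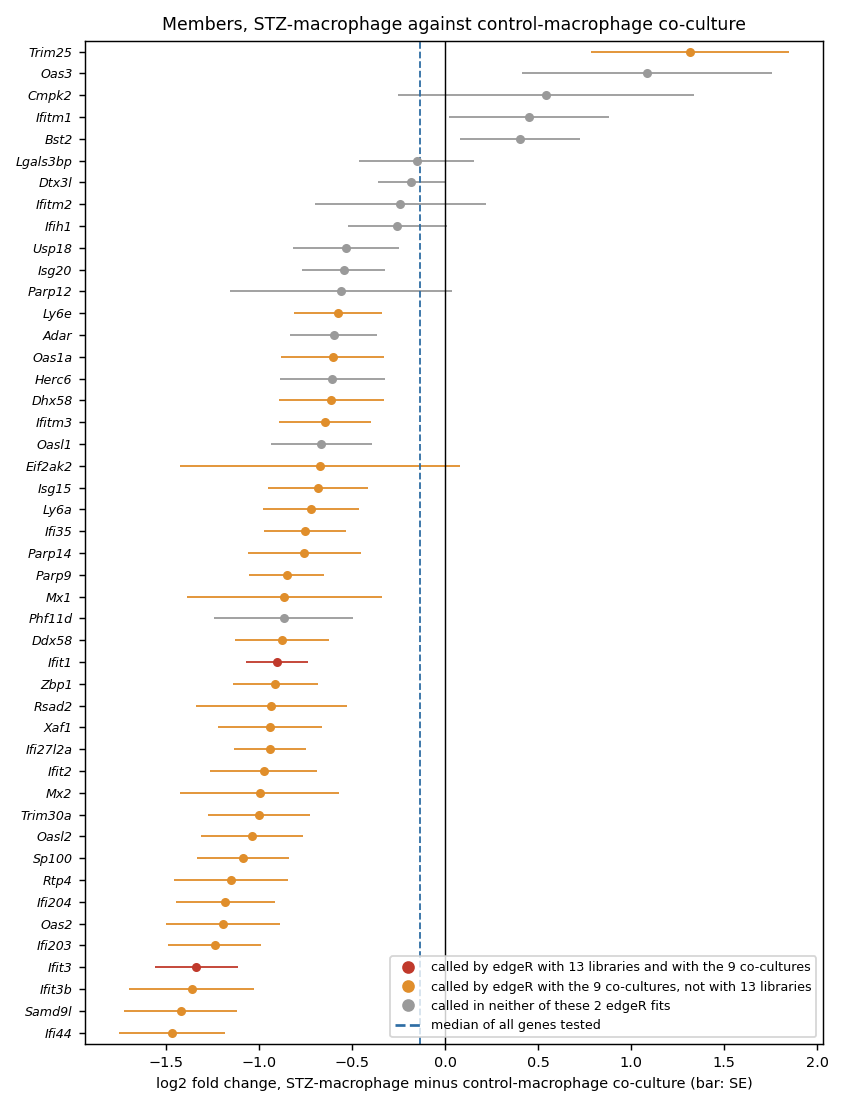
Log2 fold change of each member, STZ-macrophage minus control-macrophage co-culture (x axis; points are edgeR estimates from all 13 libraries, bars are SE), sorted by value. Of 46 points 41 lie left of 0; Ifit3 and Ifit1 (red) were called by edgeR both with 13 libraries and with the 9 co-cultures; 28 further members with negative values and Trim25 (orange) were called by edgeR with the 9 co-cultures and not with 13 libraries. The dashed line is the median of all genes tested, -0.13.

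With the 9 co-cultures alone the lowest values belonged to Ifi44 at -1.28 ± 0.23 (SE; adjusted p = 0.0139), Samd9l at -1.23 ± 0.14 (SE; adjusted p = 0.0041) and Ifit3b at -1.17 ± 0.14 (SE; adjusted p = 0.0044). Ifit3 was at -1.15 ± 0.14 (SE; adjusted p = 0.00495), Ifi203 at -1.05 ± 0.14 (SE; adjusted p = 0.00582), Isg15 at -0.49 ± 0.12 (SE; adjusted p = 0.0303), Ly6a at -0.53 ± 0.14 (SE; adjusted p = 0.0332) and Trim25 at 1.51 ± 0.38 (SE; adjusted p = 0.0327). By role, this fit called lower 7 of 11 RNA-binding effectors, 6 of 7 sensors, 4 of 9 of the Isg15 and ubiquitin group, 6 of 7 of the GTPase group, 5 of 9 membrane and secreted proteins and 2 of 3 nuclear ones. In the same fit 5 of 8 CD4 T cell markers were called lower (median -0.43, against -0.57 for the members and 0.06 for all genes) and 3 of 9 macrophage markers higher.

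Within day 1 (2 STZ-macrophage against 3 control-macrophage libraries), 41 of 46 members had negative fold changes, with a median of -0.75, and edgeR called none. Of all genes, 0.0445% were called lower and 0.172% higher. At an unadjusted p under 0.05 there were 18 members with a negative and 1 with a positive value. Of all 15739 genes, 1047 had a negative and 1534 a positive value at that threshold. Day 2 held 3 STZ-macrophage libraries and 1 control-macrophage library, which was assumed to vary like the others. Within day 2, 42 members were negative, with a median of -0.92, against -0.16 over all genes. Ifit3 had a log2 fold change of -1.15 within day 1 and -1.63 within day 2, and Ifit1 of -0.87 within day 1 and -0.96 within day 2. The difference of the effect between days was called for no member (lowest adjusted p = 0.285). It was largest relative to its error in Bst2 and Ifitm1, with -0.15 within day 1 and 1.42 within day 2 for Bst2, and 1.34 within day 1 and -0.79 within day 2 for Ifitm1. Between the days themselves 1 member was called, Trim25, lower on day 2 (log2 fold change -2.41, SE 0.55, adjusted p = 0.0445), where 1.05% of all genes were called lower. The days overlapped for Trim25. Its day 1 co-cultures ran from 24.7 CPM in control-macrophage replicate 4 to 162 CPM in STZ-macrophage replicate 5, and its day 2 co-cultures from 12.7 to 31 CPM.

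**Figure D4:**
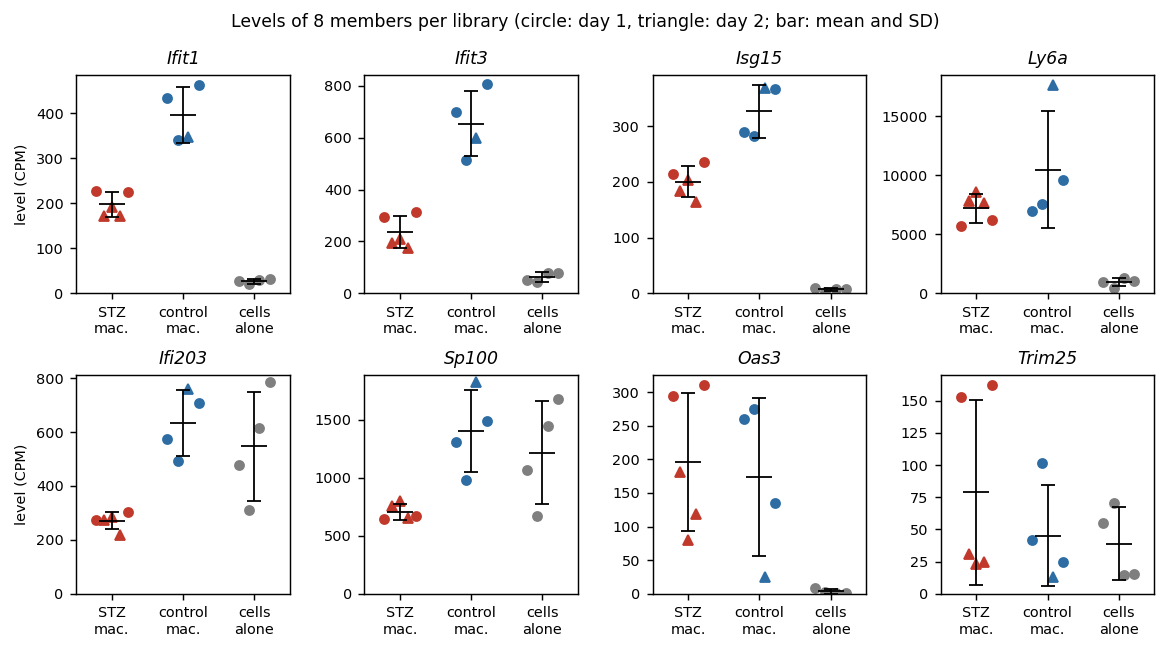
Level in CPM (y axis, from 0) of 8 members in each library of the STZ-macrophage co-culture (red), the control-macrophage co-culture (blue) and cells alone (grey); circles are day 1, triangles day 2, and bars are the mean and SD of the group (n = 5, 4 and 4). Ifit1, Ifit3, Isg15, Ifi203 and Sp100 separate the co-cultures without overlap; Ly6a, Oas3 and Trim25 overlap.

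The second pair of comparisons set each co-culture against cells alone. These comparisons share the same 4 cells-alone libraries, so their values are given side by side. In the STZ-macrophage co-culture 36 of 46 members rose and 3 fell, where 20.9% of all genes were called higher and 22.3% lower. In the control-macrophage co-culture 41 rose and none fell, where 23.1% of all genes were called higher and 21.9% lower. No member had an unadjusted p under 0.05 with a negative value, where 4145 of 15739 genes had. DESeq2 also called no member lower, where it called 3815 genes lower. Median log2 fold changes of the members were 2.55 for the STZ-macrophage and 3.21 for the control-macrophage co-culture, against -0.05 (STZ-macrophage) and -0.13 (control-macrophage) over all genes. Each co-culture library was above each cells-alone library for 36 members in the STZ-macrophage group (21.7% of all genes) and 41 in the control-macrophage group (22.2%). Macrophage markers also had positive values in these comparisons, 10 of 11 (5 called) for the STZ-macrophage and 8 of 11 (3 called) for the control-macrophage co-culture, and their part in the members' rise was not tested. Without cells-alone replicates 1 and 2, 38 members rose (32.2% of all genes) and 3 fell (24.7%) in the STZ-macrophage co-culture, and 42 rose (25.5%) and none fell (24.5%) in the control-macrophage co-culture.

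All 9 membrane and secreted proteins rose in both co-cultures. Ifitm1 and Ifitm3 had next to no reads in cells alone: Ifitm1 had 0 counts in all 4 libraries, and Ifitm3 had 2 counts in all, both in replicate 4. Against a floor of 3 counts over the 4 libraries, Ifitm1 was at least 1880-fold higher in the STZ-macrophage and at least 1352-fold higher in the control-macrophage co-culture. For Ifitm3 the ratios of pooled counts were 26795 (95% interval 7417 to 221255) for the STZ-macrophage and 38263 (10592 to 315955) for the control-macrophage co-culture; the intervals cover counting error only. Ly6a had 939, 465, 1266 and 1043 CPM in cells-alone replicates 1 to 4, below each co-culture library, with log2 fold changes of 2.52 ± 0.30 (SE; adjusted p = 2.8e-05) for the STZ-macrophage and 3.24 ± 0.29 (SE; adjusted p = 3.39e-06) for the control-macrophage co-culture. Ifi27l2a had log2 fold changes of 4.62 (STZ-macrophage) and 5.56 (control-macrophage), Lgals3bp of 4.18 (STZ-macrophage) and 4.33 (control-macrophage), and Rtp4 of 3.62 (STZ-macrophage) and 4.77 (control-macrophage).

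Of the RNA-binding effectors, 8 of 11 rose in the STZ-macrophage and 10 of 11 in the control-macrophage co-culture. Ifit1 had 27.2, 19.7, 29.4 and 31 CPM in cells-alone replicates 1 to 4, and log2 fold changes of 3.06 ± 0.19 (SE; adjusted p = 2.16e-07) in the STZ-macrophage and 3.96 ± 0.19 (SE; adjusted p = 1.81e-08) in the control-macrophage co-culture. Ifit3 had 52, 42.6, 79.9 and 80.3 CPM in cells alone, with 2.14 ± 0.25 (SE; adjusted p = 2.81e-05) in the STZ-macrophage and 3.48 ± 0.25 (SE; adjusted p = 5.88e-07) in the control-macrophage co-culture. Ifit3b had 10.3, 8.51, 25.4 and 27.8 CPM in cells alone. Each of the 3 was lower in every cells-alone library than in every co-culture library. Oas3 had 8.77, 1.96, 1.61 and 1.17 CPM in cells alone and log2 fold changes of 6.90 (STZ-macrophage) and 5.82 (control-macrophage). Ifit2 was not called by edgeR in either co-culture, with log2 fold changes of -0.19 ± 0.32 (SE; adjusted p = 0.657) in the STZ-macrophage and 0.78 ± 0.30 (SE; adjusted p = 0.0519) in the control-macrophage co-culture. DESeq2, limma-voom and edgeR with RLE scaling called Ifit2 higher in the control-macrophage co-culture.

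Among the GTPase group, 6 of 7 rose in the STZ-macrophage and 7 of 7 in the control-macrophage co-culture. Ifi44 had 0 counts in all 4 cells-alone libraries, and was at least 836-fold higher in the STZ-macrophage and at least 1904-fold higher in the control-macrophage co-culture. Samd9l, at 151, 101, 236 and 336 CPM in cells alone, had a log2 change of 0.28 ± 0.34 (SE; adjusted p = 0.53) in the STZ-macrophage and 1.70 ± 0.32 (SE; adjusted p = 0.000964) in the control-macrophage co-culture, where it rose; the difference between the co-cultures is given above. The log2 fold changes of Mx1 were 3.69 (STZ-macrophage) and 4.55 (control-macrophage). Cmpk2 had 0.308, 7.93, 0.628 and 1.7 CPM in cells alone, with 3.12 ± 0.92 (SE; adjusted p = 0.0153) in the STZ-macrophage and 2.58 ± 0.93 (SE; adjusted p = 0.0388) in the control-macrophage co-culture. Cmpk2 was called in neither co-culture by DESeq2 or with the replicate number as a block. With that block, 32 members rose and none fell in the STZ-macrophage co-culture (12.3% and 9.77% of all genes), and 39 rose and none fell in the control-macrophage co-culture (20.9% and 16.4%).

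In the Isg15 and ubiquitin group 8 of 9 rose in each co-culture. Isg15 had 10.4, 3.21, 7.58 and 7.04 CPM in cells-alone replicates 1 to 4, far below both co-cultures, with log2 fold changes of 4.87 ± 0.33 (SE; adjusted p = 4.86e-07) in the STZ-macrophage and 5.55 ± 0.34 (SE; adjusted p = 1.46e-07) in the control-macrophage co-culture. Trim25 had 55, 70.3, 14.7 and 14.9 CPM in cells alone, overlapping both co-cultures. Its log2 fold changes were 1.92 ± 0.58 (SE; adjusted p = 0.0175) for the STZ-macrophage and 0.60 ± 0.54 (SE; adjusted p = 0.387) for the control-macrophage co-culture, and it was called in neither with the replicate number as a block.

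The sensors and nuclear proteins held the members that behaved otherwise. Ifi203 had 477, 311, 616 and 784 CPM in cells alone, with log2 fold changes of -1.04 ± 0.28 (SE; adjusted p = 0.00958) in the STZ-macrophage and 0.20 ± 0.26 (SE; adjusted p = 0.565) in the control-macrophage co-culture. Ifi204 had 66.8, 31.5, 68 and 84.6 CPM in cells alone, with -1.17 ± 0.30 (SE; adjusted p = 0.00728) in the STZ-macrophage and 0.01 ± 0.28 (SE; adjusted p = 0.983) in the control-macrophage co-culture. Sp100 had 1069, 666, 1447 and 1674 CPM in cells alone, with -0.97 ± 0.28 (SE; adjusted p = 0.0135) in the STZ-macrophage and 0.11 ± 0.26 (SE; adjusted p = 0.746) in the control-macrophage co-culture. These 3 fell in the STZ-macrophage co-culture and were not called in the control-macrophage co-culture, where the sign turned negative with library totals as the scaling (-0.11, -0.29 and -0.19). Between the co-cultures themselves edgeR called none of the 3 with 13 libraries, while DESeq2, limma-voom and edgeR on the 9 co-cultures called all 3 lower. None was called lower against cells alone on day 1 libraries only, without control-macrophage replicate 3 or with the replicate number as a block. With that block plus a correction for GC content, chosen after seeing the data, all 3 were called lower in the STZ-macrophage co-culture. The other 5 sensors rose in the control-macrophage co-culture, and 4 of them in the STZ-macrophage co-culture, Ddx58 being at 0.61 ± 0.28 (SE; adjusted p = 0.0996). Zbp1 had 87.4, 47.2, 87.1 and 113 CPM in cells alone, with 2.57 ± 0.26 (SE; adjusted p = 8.2e-06) in the STZ-macrophage and 3.48 ± 0.26 (SE; adjusted p = 6.19e-07) in the control-macrophage co-culture. Dhx58 had 20.5, 6.1, 9.76 and 14 CPM, with 3.46 ± 0.33 (SE; adjusted p = 5.81e-06) in the STZ-macrophage and 4.07 ± 0.33 (SE; adjusted p = 1.46e-06) in the control-macrophage co-culture. Xaf1 had 33.8, 10.5, 17.3 and 21.9 CPM, with 2.85 ± 0.32 (SE; adjusted p = 2.26e-05) in the STZ-macrophage and 3.79 ± 0.32 (SE; adjusted p = 2.27e-06) in the control-macrophage co-culture; these 3 lay below both co-cultures in every cells-alone library.

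**Figure D5:**
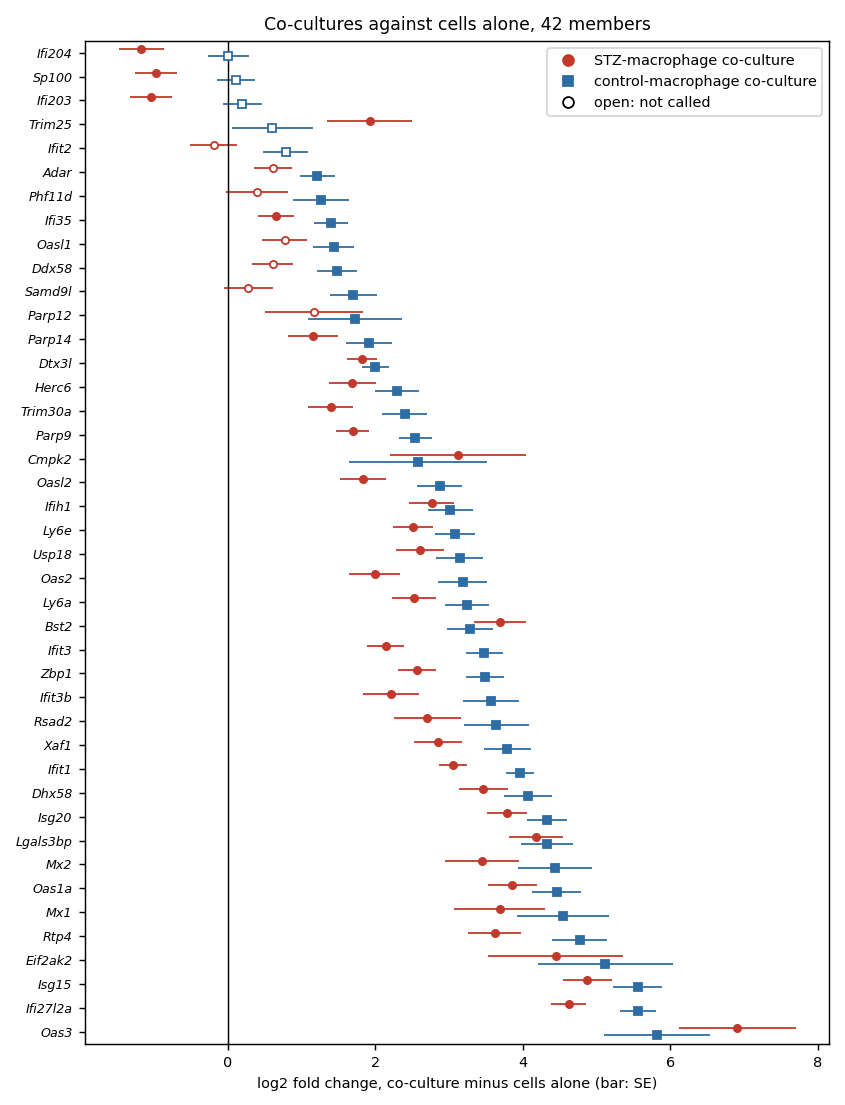
Log2 fold change against cells alone (x axis; bars are SE) for the STZ-macrophage (red circles) and control-macrophage co-culture (blue squares); open symbols were not called. The 42 members shown exclude Ifi44, Ifitm1, Ifitm2 and Ifitm3, which are at or near 0 CPM in cells alone. Ifi203, Ifi204 and Sp100 are left of 0 in the STZ-macrophage co-culture and near 0 in the control-macrophage co-culture.

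The genes that carry the interferon signal were taken from lists by role. The 18 type I interferon genes listed had 7.21 counts in all in the STZ-macrophage co-culture, 19 in the control-macrophage co-culture and 4 in cells alone, and none had enough to be tested. Of 7 receptors and kinases, edgeR called none between the co-cultures, either with 13 libraries (1 had an unadjusted p under 0.05) or with the 9 co-cultures alone. Against cells alone, 1 rose and 3 fell in each co-culture. Of all genes, 20.9% rose and 22.3% fell in the STZ-macrophage co-culture, and 23.1% rose and 21.9% fell in the control-macrophage co-culture. With the 9 co-cultures alone, 8.04% of all genes were called lower and 10% higher. These shares apply to the lists below as well. The interferon-gamma receptor chain Ifngr1 rose (log2 fold change 1.98 for the STZ-macrophage and 1.43 for the control-macrophage co-culture). Jak1 (STZ-macrophage -2.40, control-macrophage -2.71), Ifngr2 (STZ-macrophage -4.01, control-macrophage -3.80) and Jak2 (STZ-macrophage -1.23, control-macrophage -0.67) fell. Ifnar1 (STZ-macrophage 0.86, control-macrophage 0.27) and Ifnar2 (STZ-macrophage 0.51, control-macrophage -0.53) were not called.

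Of 6 transcription factors, edgeR called none between the co-cultures with 13 libraries and 1 lower with the 9 co-cultures alone, and 5 rose in the STZ-macrophage and 3 in the control-macrophage co-culture against cells alone. Irf7, which amplifies type I interferon production, had log2 fold changes of 2.60 (STZ-macrophage) and 3.17 (control-macrophage) against cells alone and -0.56 between the co-cultures. Irf9 had 1.02 (STZ-macrophage) and 1.60 (control-macrophage) against cells alone and -0.59 between the co-cultures. Stat2 had 310.3, 76.3, 30.6, 55.1 and 315 CPM in STZ-macrophage replicates 1 to 5, 129, 256, 24.9 and 58.8 CPM in control-macrophage replicates 1 to 4 and 122, 129, 33.3 and 26.4 CPM in cells-alone replicates 1 to 4. Its high libraries were STZ-macrophage replicates 1 and 5 and control-macrophage replicate 2, the same 3 that stood high for Trim25.

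Of 6 inhibitors, edgeR called none between the co-cultures with 13 libraries and 1 lower with the 9 co-cultures alone. Against cells alone, 1 rose and 2 fell in the STZ-macrophage co-culture (20.9% and 22.3% of all genes). In the control-macrophage co-culture 2 rose and 2 fell (23.1% and 21.9% of all genes). The SUMO ligase Pias1 (STZ-macrophage -1.61, control-macrophage -0.93) and the adaptor Sh2b3 (STZ-macrophage -1.94, control-macrophage -1.35) fell in both. Of 9 tested genes of sensing upstream of interferon, edgeR called none between the co-cultures with 13 libraries and 3 lower with the 9 co-cultures alone. Against cells alone, 2 of the 9 rose and 2 fell in the STZ-macrophage co-culture, and 3 rose and 1 fell in the control-macrophage co-culture. The RNA-sensing receptor Tlr3 rose in both co-cultures (STZ-macrophage 5.20, control-macrophage 5.98). In cells alone Tlr3 was at 0 CPM in replicates 1, 3 and 4 and at 0.312 CPM in replicate 2, so the size of its rise is uncertain. The kinase Ikbke fell in both co-cultures (STZ-macrophage -1.81, control-macrophage -1.32).

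The 16 interferon-gamma-inducible GTPases had negative fold changes between the co-cultures in 16 of 16 cases (median -0.85, none called with 13 libraries and 12 called lower with the 9 co-cultures alone). Against cells alone 15 rose in the STZ-macrophage and 16 in the control-macrophage co-culture; Iigp1, for example, had 3.46 (STZ-macrophage) and 4.56 (control-macrophage), and Gbp10 5.55 (STZ-macrophage) and 6.40 (control-macrophage). Of 54 other tested interferon-stimulated genes, 41 had negative values between the co-cultures (median -0.77) and 1 fell, Phf11c, at -1.20 ± 0.18 (SE; adjusted p = 0.0226). With the 9 co-cultures alone, 32 of the 54 were called lower and 2 higher. Against cells alone, 23 rose and 5 fell in the STZ-macrophage co-culture, and 33 rose and none fell in the control-macrophage co-culture.

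Some counts are uncertain because genes share sequence. The library kit named in the labels does not mark the strand, so reads from Adar and Chrnb2 (1365 exonic bases of Adar), and from Dtx3l and Parp9 (458 bases), cannot be told apart where these overlap on opposite strands. Shorter overlaps of 38 to 290 bases affect Oasl1, Dhx58, Eif2ak2, Usp18 and Ifi35. Ifi203 overlaps Mndal on its own strand. The coding sequences of Ifitm2 and Ifitm3 are 75.9% identical and those of Mx1 and Mx2 72.9%, and Mx2 is annotated as a polymorphic pseudogene in GENCODE vM21.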

How the data were processed

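RNA of sorted live CD45+Thy1.2+CD4+ cells was made into libraries from 10 ng with the SMARTer Ultra Low kit and sequenced paired-end on a NovaSeq with a target of 30 M reads, aligned to GRCm38, per the labels' protocols. For aligner and counting program, the sources used here give none; DESeq2 is named in the submitters' processing notes. The authors deposited a table of estimated counts per gene, without normalization (11% of values are not whole), and a table of adjusted log2 values for 12236 genes, used only as an alternative with limma. All 13 columns were matched to a library by its header, which matches that library's labels.

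Repeated rows (65) were left out, counts were rounded, genes were kept by filterByExpr and scaled by TMM, and edgeR 4.0.16 (R 4.3.3) tested 15739 of them (robust quasi-likelihood, 1 term per group plus collection day, all 13 libraries, Benjamini-Hochberg over all genes, called below 0.05). Since cells alone are all of day 1, the 9 co-cultures set the day term. Each SE was obtained as the fold change (log2) divided by the root of the F statistic. CPM are unrounded counts over the total times the TMM factor. Genes with 0 counts in cells alone are bounds against 3 counts over that group; genes with 1 to 3 counts have an exact 95% interval, for counting error only, since the libraries carry no molecular identifiers. Alternatives used DESeq2 1.42.0 and limma 3.58.1. The main test was also run on simulated counts with known changes. Those changes were larger than any member's between the co-cultures and came without a day effect, so that check does not cover changes of the members' size.

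The members and lists were chosen with earlier results of these data known, so no list was tested as a set. The values of 1 pathway gene are not reported here. Values per library are given for members called between the co-cultures, the called member with the smallest p per role and comparison, the 3 highest and 3 lowest fold changes per comparison, and Ifit1, Ifit3, Isg15 and Ly6a. Exonic lengths and coding sequences came from GENCODE vM21 (GRCm38); coding-sequence identity took the place of a planned protein identity, since no protein table was used here. Promoters are RefSeq's (GRCm38.p6).

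Replicate numbers are shared between groups. Correlations of deviations from the group means were 0.304, 0.496, 0.457 and 0.288 in the 4 same-numbered pairs of control-macrophage co-culture and cells alone. The highest pair with different numbers had 0.6015. The labels do not state a pairing, and the main fit used none. A fit with the replicate number as a block is given only as an alternative.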

Additional observations from a re-analysis of the deposited data

Results flagged for a closer look

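Among 135 sets of values of 1 member in 1 group, 6 held a library far from the others by Dixon's test, where chance gives about 1 in 20. Cmpk2 was highest in STZ-macrophage replicate 1 (51.6 CPM, next 13.4 CPM). Mx2 was highest in control-macrophage replicate 4 (64.2 CPM, next 46.4 CPM). In cells alone, Mx1 (5.94 CPM, next 0.98 CPM) and Oas3 (8.77 CPM, next 1.96 CPM) were highest in replicate 1, and Ifi27l2a (45.2 CPM, next 67.7 CPM) and Herc6 (25.4 CPM, next 71.8 CPM) were lowest in replicate 2.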

How the results depend on the processing

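The count of members called lower between the co-cultures, 2 in the report, was 0 with RLE factors, on day 1 libraries only, without STZ-macrophage replicates 2 and 4, within day 1, within day 2, with the replicate block and with that block plus a correction for GC content. It was 1 with upper-quartile factors, no low-count filter, no day term or the GC correction, 10 with DESeq2, 16 with limma-voom, 11 with limma on the authors' deposited log2 table, 27 without cells-alone replicates 1 and 2, and 30 on the 9 co-cultures (these last also called 1 higher each). Leaving out single libraries gave 0 to 14. The count was 0 without any STZ-macrophage or control-macrophage library, 14 without cells-alone replicate 2, 1 without replicate 3 and 4 without replicate 4. Calls over all genes moved as well, from 25 lower in the report. Without 1 STZ-macrophage or control-macrophage library, 0 to 9 genes were called lower. Without cells-alone replicates 2, 3 and 4 there were 230, 12 and 51. RLE factors gave 14, upper-quartile factors 18, and no day term or the GC correction 17. Day 1 libraries only, the replicate block and the fit without STZ-macrophage replicates 2 and 4 gave 0. The cause was not tested. Across all these fits 39 to 42 of 46 members stayed negative and the members' median minus that of all genes was -0.79 to -0.56 (-0.62 in the report), while the scaling moved the all-gene median (-0.13 by TMM, -0.03 by RLE, 0.07 by totals). Against cells alone, the 3 members called lower in the STZ-macrophage co-culture became 0 on day 1 libraries only, without STZ-macrophage replicates 2 and 4 and with the replicate block, and 0 to 3 when single libraries were left out (0 without control-macrophage replicate 3, 1 without cells-alone replicate 3). With the replicate block plus the GC correction all 3 were still called lower. Counts called higher moved by less than 1.5 times: 31 to 39 for the STZ-macrophage and 38 to 42 for the control-macrophage co-culture. Small fold changes of the control-macrophage co-culture turned negative: by totals Ifi204 was at -0.29, Sp100 at -0.19 and Ifi203 at -0.11; by upper quartile Ifi204 at -0.12 and Sp100 at -0.0284; without cells-alone replicates 1 and 2 at -0.27, -0.25 and -0.16 for Ifi204, Sp100 and Ifi203; with the GC correction at -0.26, -0.19 and -0.00677; and with the replicate block and GC correction at -0.26, -0.19 and -0.0515. Leaving out single libraries gave -0.20 to 0.19 for Ifi204, -0.0827 to 0.31 for Sp100 and, between the co-cultures, -0.29 to 1.72 for Cmpk2, which was -0.86 within day 2. The GC correction was chosen after seeing the data. Same-numbered STZ-macrophage and control-macrophage libraries correlated at 0.204, -0.289, 0.627 and 0.306, and STZ-macrophage and cells-alone libraries at 0.0262, -0.592, 0.558 and 0.441. The labels do not state a pairing for these either, and the values do not settle it. The replicate block called 0 members between the co-cultures, and 32 higher in the STZ-macrophage and 39 in the control-macrophage co-culture against cells alone.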
